A study of Oncorhynchus mykiss with 14 samples.

Results

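Transcripts of 5 genes that act in the handling of ions and water or in hormone signalling were followed in the eggs of 7 rainbow trout females, among 64494 genes in the annotation. They were oxsr1a (ENSOMYG00000011197), slc9a1b (ENSOMYG00000007199), npr1a (ENSOMYG00000011071), prlhr2a (ENSOMYG00000046739) and fstl3 (ENSOMYG00000019666). All 5 were among the 30919 genes with a mean above 1 normalized count over the 14 libraries. They were selected on measured values of these same libraries. For oxsr1a, npr1a, prlhr2a and fstl3, the selecting value was the correlation of the normalized count in gynogenetic eggs with the survival of the gynogenotes at the eyed stage. For slc9a1b it was the correlation of the count in control eggs with the survival of the normally fertilized offspring. In both cases the study required a correlation coefficient (r) beyond 0.9 in either direction and a false discovery rate below 0.05. What is set below against the survival rate that selected a transcript is therefore a description with no test.

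The eggs came from 5-year-old females of the Rutki strain, named F1 to F4 and F6 to F8, and each clutch was divided into 2 pools. Control eggs were fertilized with non-irradiated rainbow trout sperm, and gynogenetic eggs were activated with UV-irradiated European grayling sperm, so that the species of the sperm and the irradiation cannot be told apart in the comparison of both pools. The deposited genotype reads "XX, Doubled Haploids" for both groups, although only the gynogenetic eggs were meant to develop with maternal chromosomes alone. Eggs were sampled immediately after treatment, and whether the sequenced gynogenetic eggs were taken before or after the high hydrostatic pressure shock is not stated. Each library was made from polyA RNA of very few pooled eggs (2 or 3), so the female is the replicate. A lower count can mean less polyA transcript in every egg or its absence from some of them. The amount of transcript regardless of its polyA tail was not measured. Females F1, F4, F7 and F8 had eggs of increased competence for gynogenesis and F2, F3 and F6 of decreased competence, as judged by the survival of their gynogenotes, which at the eyed stage was highest in F7, followed by F8, F4, F1, F6, F3 and F2. The survival of control offspring at the eyed stage was higher in F3, F4 and F6 than in F1, F2, F7 and F8, although the study did not find it to differ significantly between females, so this split is one of small differences.

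Trout eggs are laid into fresh water, where they gain water and lose salts unless both movements are held in check. Kinases of the OSR1 type are switched on by WNK kinases when cell volume or chloride changes, and they phosphorylate cation-chloride cotransporters. Sodium/hydrogen exchangers trade external sodium for internal protons and thereby set cell pH and volume. Natriuretic peptides and prolactin are hormones of salt and water balance, and prolactin is known in fish for its part in life in fresh water. Activins and their binding proteins belong to the TGF-beta system, which takes part in the growth of the ovarian follicle. All these roles are background, and in an egg before the embryo uses its own genome the transcripts were laid down by the mother.

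Coordinates of 4 of the 5 genes were found in the RefSeq annotation of USDA_OmykA_1.1 through their NCBI gene number. The exchanger slc9a1b lies at chr32:21260259-21274297 and npr1a, listed there as LOC110488277, on the same chromosome at chr32:31370711-31485734. The gene of prlhr2a (LOC110525656) lies at chr6:28019895-28025362 and that of fstl3 (LOC110508215) at chr1:21733594-21747189. For slc9a1b and fstl3 the study designed primers for quantitative PCR, which are shown as the only sequences of these transcripts in the sources used here. No PCR value was analysed here.
slc9a1b forward: gtgtttggggagtcccttct
slc9a1b reverse: accacgcctaggaacacatc
fstl3 forward: gagtgtgtcctcctgatggc
fstl3 reverse: tcggacttcagcggtattgg
All 4 primers are 20 bases long and are written 5′ to 3′. Salmonid genomes hold many duplicated genes, and reads shared with a near-identical copy could be missing from any of these counts.

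Reads assigned to genes came to between 34535902 and 57014149 counts in a control library and between 45860801 and 67557305 in a gynogenetic library. Raw counts were divided by the DESeq2 size factors of the libraries to give normalized counts, which are not corrected for gene length and are therefore not compared between genes. Nearly all counts were even numbers, so the counting error was computed from the number of read pairs, taken as the count divided by 2. It was 1.43% to 2.18% for oxsr1a, 2.10% to 5.07% for slc9a1b, 6.67% to 14.6% for prlhr2a, 8.51% to 18.3% for npr1a and 10.98% to 21.8% for fstl3. A difference between single libraries of fstl3 or npr1a therefore needs to be larger than one of oxsr1a to exceed the sampling of reads. The cyclin gene ccnb1, a transcript of mature eggs, was at 109832 ± 20863 normalized counts in control and 122298 ± 23039 in gynogenetic eggs (SD, n = 7), and it was the 1 of 10 egg markers for which a gene symbol was at hand. Markers of follicle cells, blood and sperm had no symbol at hand, so their levels were not analysed here. Symbols were at hand only from the study's lists of genes correlated with survival, and ccnb1 is named from these lists.

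**Figure D1:**
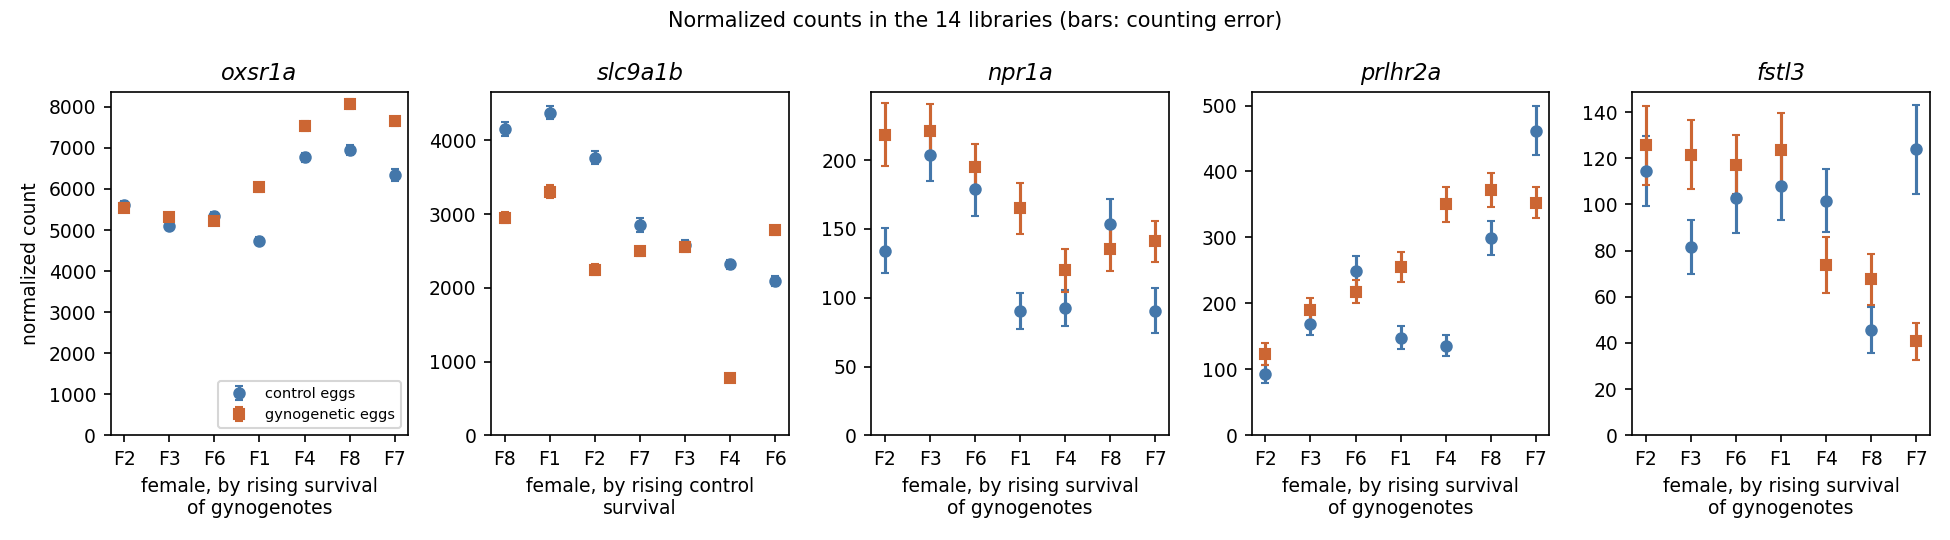
Normalized counts of the transcripts in control (circles) and gynogenetic eggs (squares) of each female, with bars for the counting error alone. Females stand from left to right by rising survival, of controls for slc9a1b and of gynogenotes for the other transcripts. The gynogenetic values of oxsr1a and prlhr2a are mostly higher on the right, at 5547 and 123 in F2 and 7646 and 353 in F7, with the highest values of 8062 and 372 in F8, whereas fstl3 lies at 126 in F2 and 40.8 in F7.

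The kinase gene oxsr1a was the steadiest of the transcripts between the pools of 1 female and was higher in gynogenetic eggs of females with increased competence. In control eggs its normalized count was 4734 in F1, 5609 in F2, 5093 in F3, 6775 in F4, 5336 in F6, 6337 in F7 and 6951 in F8. In gynogenetic eggs it was 6044 in F1, 5547 in F2, 5317 in F3, 7533 in F4, 5222 in F6, 7646 in F7 and 8062 in F8. Females F4, F7 and F8 were the highest in both pools, while F1 was the lowest of the control eggs and the lowest of increased competence in gynogenetic eggs. The mean in gynogenetic eggs was 7321 ± 881 (SD, n = 4) with increased and 5362 ± 167 (SD, n = 3) with decreased competence, a 1.37-fold difference with no overlap. In control eggs the same classes overlapped and their means differed 1.16-fold. The whole range over the 14 libraries was 1.70-fold.

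The natriuretic peptide receptor gene npr1a, whose product in mammals makes cyclic GMP when it binds its hormone, had the opposite order. Its control eggs gave 90.5 normalized counts in F1, 134 in F2, 204 in F3, 92.52 in F4, 179 in F6, 90.6 in F7 and 154 in F8. Its gynogenetic eggs gave 165 in F1, 219 in F2, 221 in F3, 120 in F4, 195 in F6, 141 in F7 and 135 in F8. The 3 females with decreased competence were the highest in the gynogenetic pool, and in the control pool F3 and F6 were the highest while F8 stood above F2. Means in gynogenetic eggs were 140 ± 18.7 (SD, n = 4) with increased and 211 ± 14.3 (SD, n = 3) with decreased competence, which is 1.51-fold lower with increased competence. The classes overlapped in control eggs, where the mean was 1.61-fold lower with increased competence. The fold between the classes was thus no smaller in the control pool, but F8 broke the separation there.

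The receptor gene prlhr2a belongs to the G protein-coupled receptors for prolactin-releasing peptide. Control eggs held 148 normalized counts of it in F1, 92.7 in F2, 169 in F3, 136 in F4, 249 in F6, 462 in F7 and 299 in F8. Gynogenetic eggs held 255 in F1, 123 in F2, 189 in F3, 350.3 in F4, 218 in F6, 353 in F7 and 372 in F8. Female F2 was the lowest in both pools and F7 and F8 were among the 3 highest in both, but F4 was among the 3 lowest of the control eggs and among the 3 highest of the gynogenetic eggs. With increased competence the mean in gynogenetic eggs was 333 ± 52.4 (SD, n = 4) and with decreased competence 177 ± 48.4 (SD, n = 3), a 1.88-fold difference without overlap. In control eggs the difference was 1.54-fold and the classes overlapped.

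The follistatin-like gene fstl3 encodes a secreted protein that in mammals binds activin and related ligands. In control eggs it had 108 normalized counts in F1, 114 in F2, 81.8 in F3, 102 in F4, 103 in F6, 124 in F7 and 45.5 in F8. In gynogenetic eggs it had 124 in F1, 126 in F2, 121 in F3, 73.9 in F4, 117 in F6, 40.8 in F7 and 67.5 in F8. The low gynogenetic values belonged to F4, F7 and F8, whereas F1, also of increased competence, lay with the females of decreased competence. Hence the classes overlapped even in the eggs that chose the gene, with means of 76.4 ± 34.6 (SD, n = 4) for increased and 121 ± 4.16 (SD, n = 3) for decreased competence. In control eggs the 2 means were 94.7 and 99.6, and F7 held the highest value of all 7 females.

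The exchanger gene slc9a1b followed the other survival rate. Control eggs had 4376 normalized counts in F1, 3766 in F2, 2578 in F3, 2318 in F4, 2087 in F6, 2848 in F7 and 4157 in F8. Gynogenetic eggs had 3304 in F1, 2246 in F2, 2548 in F3, 776 in F4, 2781 in F6, 2493 in F7 and 2951 in F8. The 3 females with high survival of controls were the lowest of the control pool, and in the gynogenetic pool only F4 stood apart, below all others. Control eggs of females with lower survival had a mean of 3787 ± 675 (SD, n = 4), against 2328 ± 246 (SD, n = 3) with high survival, which is a 1.63-fold difference without overlap. The difference was 1.35-fold in gynogenetic eggs, with 2749 against 2035 normalized counts and overlap. It rested on F4. The log2 difference fitted by edgeR in gynogenetic eggs, high minus lower control survival, was −0.40 with F4 and −0.007 without it.

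Non-overlap of the competence classes was met by 3 of the 5 transcripts in gynogenetic eggs, where 3.09% of the 30919 genes met it, and by 0 of 5 in control eggs, where 5.39% did. For the groups by control survival it was met by 1 of 5, slc9a1b, in control eggs (6.94% of all genes) and by 0 of 5 in gynogenetic eggs (6.61%). Since the transcripts were selected on these orders, nothing is read from these counts. In both pools at once, 0 of 5 met it for either grouping, against 0.634% of genes by competence and 1.46% by control survival. The competence classes here hold F1 as increased, whereas the study's clustering of correlated genes placed F1 with the females of low survival. The counts by competence depend on where F1 is placed.

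The r with the selecting survival rate was 0.936 for oxsr1a, 0.948 for prlhr2a, −0.908 for npr1a and −0.941 for fstl3 in gynogenetic eggs. In the control eggs of the same females, which did not enter the selection but share the mothers and their survival, r was 0.743 for oxsr1a, 0.742 for prlhr2a, −0.567 for npr1a and −0.129 for fstl3. For slc9a1b, r with control survival was −0.962 in control and −0.51 in gynogenetic eggs. At this stage all 5 had the same sign in the other pool at a smaller size, but with survival at the swim-up stage r of fstl3 was 0.1198 in control against −0.874 in gynogenetic eggs, and r of prlhr2a was 0.859 in control against 0.786 in gynogenetic eggs. For prlhr2a the r of control eggs rested on F7 and F8, without which it was 0.0046, and for fstl3 it ranged from −0.583 to 0.586 when single females were left out, with the highest value in the absence of F8. The r of slc9a1b in gynogenetic eggs was −0.242 in the absence of F4. Nearest to the limit of 0.9 among the 5 was npr1a. Of all genes in gynogenetic eggs, ENSOMYG00000004394 was just inside with an r of −0.9002 and tor3a just outside with 0.899. In control eggs ENSOMYG00000048715 was just inside with −0.9001 and ENSOMYG00000014875 just outside with −0.8998. In all, 54 genes in gynogenetic and 229 genes in control eggs lay beyond 0.9 by r alone. The limit on the false discovery rate, which the study also set, was not applied to these counts.

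**Figure D2:**
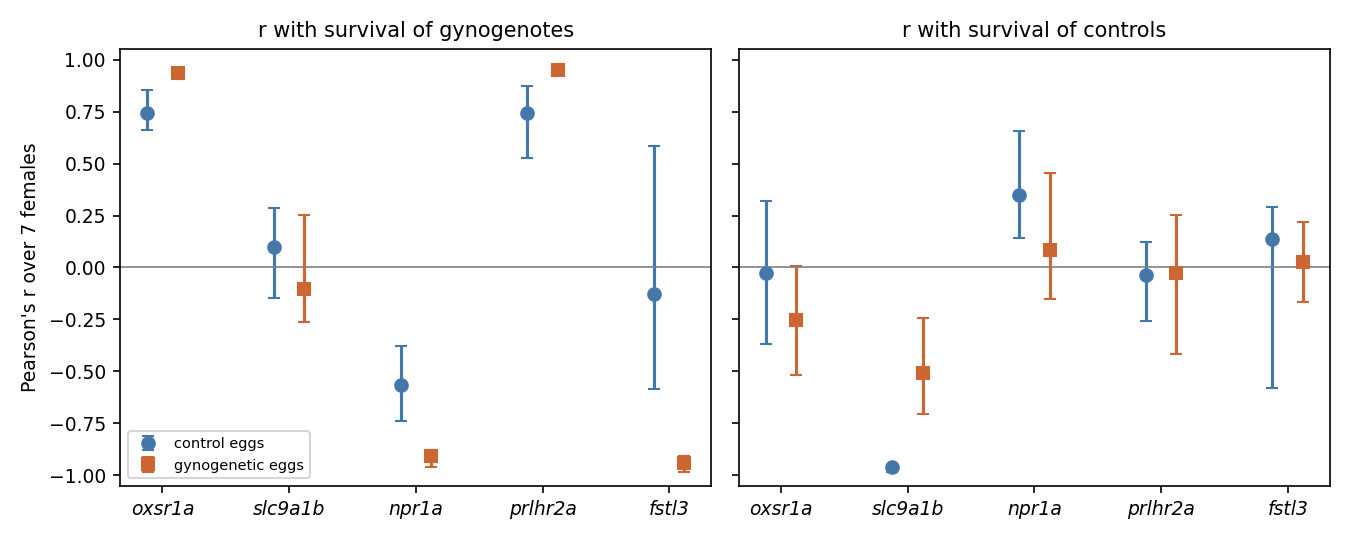
Pearson's r over 7 females between normalized count and the survival of gynogenotes (left) or of controls (right), in control eggs (circles) and gynogenetic eggs (squares), with bars for the range of r when each female is left out in turn. The selecting values lie beyond 0.9, the same survival in the other pool gives values from −0.567 to 0.743, and the survival rate that was not used gives values from −0.253 to 0.348.

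Each transcript was next set against the survival rate that had not selected it. In the pool that selected a transcript this comparison was not free, since the 2 survival rates correlated with r = −0.19 over the females, and an r beyond 0.9 with one of them holds the r with the other to at most 0.584 in size for the 5 transcripts. A size of 0.797 or more would have been needed for an exact permutation p of 0.05. In the selecting pool the values are therefore given with no test, and they were −0.253 for oxsr1a, 0.0856 for npr1a, −0.0272 for prlhr2a and 0.0271 for fstl3 in gynogenetic eggs and 0.0974 for slc9a1b in control eggs. Spearman's rho was −0.607, 0.143, −0.321, −0.0714 and 0.143 in the same order. Without F4 and F6, or F7 and F8 for slc9a1b, r was −0.348, 0.433, −0.186, 0.0309 and −0.134.

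In the other pool 5 relations were tested, and 0 of 5 passed or had an unadjusted p below 0.05. The largest was that of npr1a in control eggs with control survival (r = 0.348, exact permutation p = 0.411, adjusted p = 0.948 over the 5 relations, two-sided), where rho was 0.357 and r without F4 and F6 was 0.577. The r was −0.0286 for oxsr1a, −0.0341 for prlhr2a and 0.137 for fstl3 in control eggs, and −0.102 for slc9a1b in gynogenetic eggs with the survival of gynogenotes. Spearman's rho gave an exact permutation p of 0.444 or more and an adjusted p of 0.963 for all 5. With 7 females an r of moderate size could have gone undetected. The other pool shares its mothers with the selecting one and kept part of the selecting r, at 0.743 for oxsr1a and 0.742 for prlhr2a. Such an r limits the r with the other survival rate too, so these tests were not fully free. Nothing is read from a relation that did not pass.

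The same question was put to groups of females with edgeR's quasi-likelihood F-test across all genes, in the pool that had not selected the transcript. Between females with high and lower control survival, 0.00976% of the genes tested passed in control eggs, and 0 of the 4 transcripts tested did. The log2 difference, high minus lower, was 0.46 for npr1a and −0.41 for prlhr2a, and −0.01 for both oxsr1a and fstl3, with edgeR adjusted p from 0.917 to 0.998. With single females left out the difference of npr1a ranged from 0.23 (without F3) to 0.73 (without F4), and that of prlhr2a from −0.68 to 0.06, the latter without F7. For slc9a1b the competence classes were compared in gynogenetic eggs, where 0.00326% of genes passed. Its log2 difference, increased minus decreased, was −0.12 (edgeR adjusted p = 1), and it became 0.17 when F4 was left out. No unadjusted p of these tests was below 0.05, and DESeq2 called 0 as well. So few genes passed in any of these comparisons that a transcript which missed the threshold is not shown to be equal between the groups. The part of the selecting r kept in this pool limits these differences as well, to a degree that was not computed.

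In the selecting pool the selection limits such differences too, and they are given with no test. By control survival in gynogenetic eggs, where 0.00326% of genes passed, the log2 differences were −0.16 for oxsr1a, 0.14 for npr1a, −0.11 for prlhr2a and 0.25 for fstl3. By competence in control eggs, where 0.00325% of genes passed, that of slc9a1b was 0.27, and it ranged from 0.093 (without F6) to 0.54 (without F2).

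The effect of the treatment was compared between control and gynogenetic eggs, a contrast that did not enter the selection. The main fit had no term for the female and so left out the pairing of the 2 pools. A fit with the female as a block was an alternative. None of the 5 transcripts passed in edgeR or in DESeq2. Mean normalized counts in control and gynogenetic eggs were 5833 ± 861 and 6482 ± 1223 for oxsr1a, 3161 ± 925 and 2443 ± 811 for slc9a1b, 135 ± 46.1 and 171 ± 41.1 for npr1a, 222 ± 127 and 266 ± 95.4 for prlhr2a, and 96.8 ± 26.1 and 95.7 ± 34.4 for fstl3 (SD, n = 7 each). In edgeR's quasi-likelihood test without the female the adjusted p was 0.99999 for each of the 5. In the same unpaired fit 0.184% of all genes passed, 57 in number and all lower in gynogenetic eggs. At an unadjusted p below 0.05 the number was also 0 of 5 with both tools. With the female as a block 5.04% of genes passed, 1.28% higher and 3.75% lower, and still 0 of the 5, with slc9a1b nearest at a log2 difference of −0.43 (edgeR adjusted p = 0.101, and the 1 of 5 with an unadjusted p below 0.05).

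The differences within single females were taken as the log2 of the normalized count plus 1, gynogenetic minus control. Their mean was 0.14 ± 0.15 for oxsr1a, 0.37 ± 0.38 for npr1a, 0.35 ± 0.59 for prlhr2a, −0.43 ± 0.63 for slc9a1b and −0.06 ± 0.75 for fstl3 (SD, n = 7). The median of these 5 means was 0.14, against 0.02 over all genes tested. No transcript had the same direction in all 7 females, which 6.2% of genes had. The exchanger slc9a1b was lower in gynogenetic eggs of 6 of 7 females and npr1a was higher in 6 of 7, with F6 and F8 as the respective exceptions. The other 3 were higher in 5 of 7.

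Single females carried a large part of these means. In F4, slc9a1b differed by −1.58 on the log2 scale, at 776 in gynogenetic against 2318 normalized counts in control eggs, and without F4 its mean difference was −0.24 ± 0.41 (SD, n = 6). The same female had the largest rise of prlhr2a, from 136 to 350.3, and without it that mean was 0.18 ± 0.42 (SD, n = 6). In F7, fstl3 stood at 40.8 in gynogenetic against 124 in control eggs, and without F7 its mean difference was 0.20 ± 0.37 (SD, n = 6), on the other side of 0. The raw fstl3 counts of F7 were 82 in control and 52 in gynogenetic eggs. Its control library had the fewest assigned counts of all, 34535902, and its gynogenetic library the most, 67557305. The falls of slc9a1b in F4 and of fstl3 in F7 both exceeded the counting error of the libraries concerned. For each of these 2 transcripts a fall of this size was seen in 1 pair of pools only, and smaller falls occurred in other females.

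**Figure D3:**
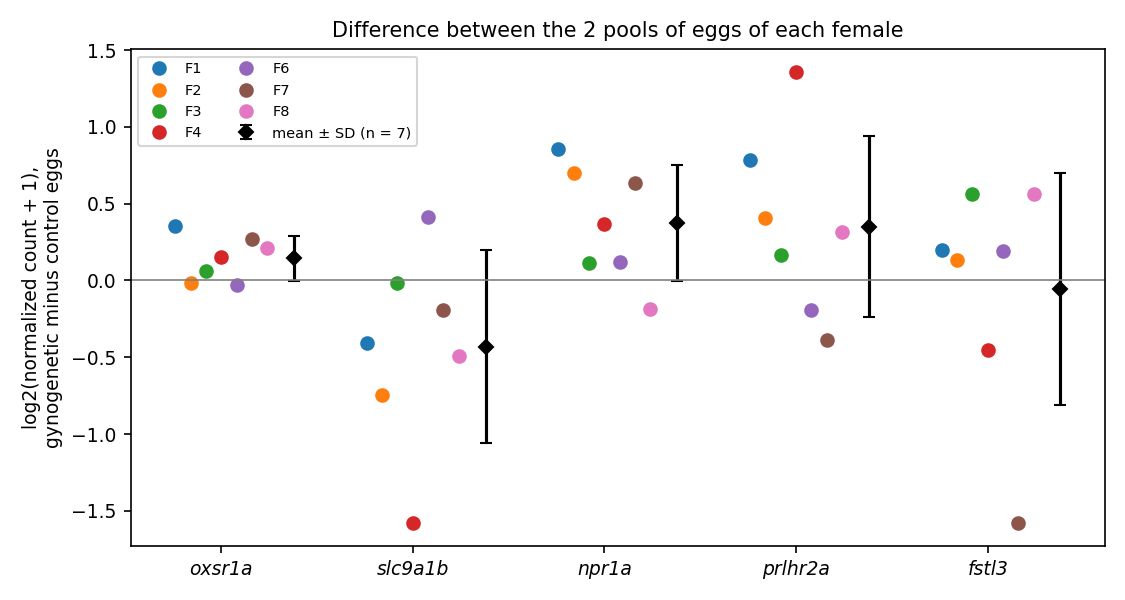
Difference of log2(normalized count + 1) between gynogenetic and control eggs for each female (coloured points), with the mean and SD over 7 females in black. The points of oxsr1a lie between −0.03 and 0.35, while F4 lies at −1.58 for slc9a1b and at 1.36 for prlhr2a, and F7 at −1.58 for fstl3.

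Whether the difference between the pools depended on the survival group was fitted with the female as a block. The selecting pool enters this contrast and the selection limits the differences there. The values are therefore given as a description, and nothing is read from a transcript that did or did not pass. By control survival, 0.0291% of genes passed. The log2 interaction values were −0.15 for oxsr1a, −0.31 for npr1a, 0.16 for prlhr2a and 0.26 for fstl3. By competence, 0.0259% of genes passed, and the interaction of slc9a1b was −0.54. With single females left out the interaction of slc9a1b ranged from −0.89 (without F2) to −0.24 (without F4).

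Between the 7 females, with treatment as a covariate, 45% of all genes passed, and 2 of the 5 transcripts, slc9a1b and prlhr2a, were among them. Since the transcripts had been selected for a difference between females, this count is a description and nothing is read from it. The SD between females, on the log2 scale, was 0.23 for oxsr1a, 0.49 for slc9a1b, 0.38 for npr1a, 0.62 for prlhr2a and 0.40 for fstl3, and the median over the 24042 genes with a mean of at least 10 was 0.61. The SD between the 2 pools of a female was 0.10 for oxsr1a, 0.44 for slc9a1b, 0.27 for npr1a, 0.42 for prlhr2a and 0.53 for fstl3, with a median of 0.41 over the same genes. Only for fstl3 was the SD between pools above the SD between females. The SD between females was taken on the mean of the 2 pools. That between pools was taken for single libraries, with the mean treatment difference removed. The 2 are therefore not like measures, since the SD between females still holds part of the spread between pools. For fstl3 the order does not depend on this, since removing that part would only lower its SD between females of 0.40 further below 0.53. In these 7 females the spread between pools was thus the larger source for fstl3. For slc9a1b, at 0.49 between females against 0.44 between pools, removing that part could turn the order. The SD between females without that part was not computed for any transcript. Counting error alone would give an SD of 0.03 in oxsr1a, 0.04 in slc9a1b, 0.14 in prlhr2a, 0.17 in npr1a and 0.22 in fstl3, and the SD between pools was above it for all 5.

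**Figure D4:**
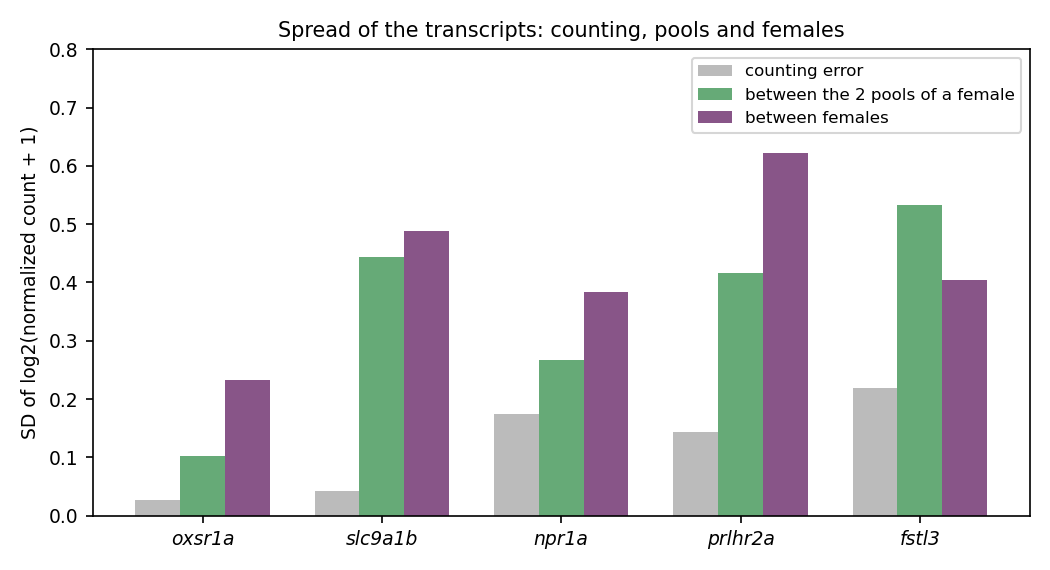
SD of log2(normalized count + 1) for each transcript from counting error (grey), between the 2 pools of eggs of a female (green) and between females (purple). Bars start at 0. Counting error is the smallest bar for each transcript, and fstl3 is the only one in which the bar between pools (0.53) is taller than that between females (0.40). Bars between females are of the mean of the 2 pools and hold part of the spread between pools, so the 2 are not like measures.

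Among themselves, the transcripts selected in gynogenetic eggs formed 2 opposed pairs there, each having been selected on the same survival rate. In that pool r was 0.850 between oxsr1a and prlhr2a and 0.743 between npr1a and fstl3, while it was −0.924 between oxsr1a and npr1a, −0.915 between prlhr2a and npr1a, −0.854 between oxsr1a and fstl3 and −0.764 between prlhr2a and fstl3. In control eggs the same 6 values were 0.369, −0.468, −0.221, −0.0256, −0.394 and −0.218 in this order. The pair of npr1a and fstl3 thus had opposite signs in the 2 pools, and the other 5 had the same sign at a smaller size. All values are over 7 libraries that share their mothers with those of the other pool, and they are given as a description.

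Genes most like each transcript over the 14 libraries were sought by r of the log2 values among the 24042 genes with a mean of at least 10. For slc9a1b they were the tyrosine kinase gene src (r = 0.926), ENSOMYG00000012804 (0.922) and si:ch211-195o20.7 (0.917). For prlhr2a they were ENSOMYG00000052350 (0.895), ENSOMYG00000015361 (0.893) and the zinc finger gene bcl11ab (0.877). The nearest gene was ENSOMYG00000030469 for oxsr1a (0.881), ENSOMYG00000008594 for npr1a (0.854) and ENSOMYG00000029666 for fstl3 (0.836). These are the highest of many values and libraries come in pairs of 1 mother, so they rank the genes and test nothing.

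Other genes of the same pathways could be looked up only where a symbol was at hand, which was so for 244 of the 64494 genes. These symbols came from the study's lists of genes correlated with survival. Which genes could be named here, those most like a transcript included, therefore follows from that selection. Of the list of activins, their receptors and binding proteins, only acvr1ba, an activin receptor gene, was found beside fstl3, and it had 1204 ± 389 normalized counts in control and 1167 ± 313 in gynogenetic eggs (SD, n = 7). The lists of WNK and cotransporter genes, sodium/hydrogen exchangers, natriuretic peptides and prolactin-releasing peptides held no gene with a symbol at hand but oxsr1a, slc9a1b, npr1a and prlhr2a. Ligands and partners of the receptors were thus not analysed here.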

How the data were processed

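RNA-Seq counts of 14 egg libraries were analysed, 1 control and 1 gynogenetic library from each of 7 females. The authors trimmed the reads, mapped them with STAR 2.7.5c to OmykA_1.1 and assigned them to Ensembl genes with HTSeq 1.99.2, and the deposited counts are unnormalized. Whether counting used strand is not stated there. Between 99.7% and 99.8% of the non-zero gene counts of a library were even. Summary lines without a gene were left out. Of the counts assigned to a gene, to no feature or to an ambiguous feature, 67.6% to 74.5% were assigned to genes. Other summary counts were not part of this share.

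Group and replicate number were taken from the deposited labels. The female of each library and the survival classes were taken from the study. The 5 transcripts, the comparisons and the gene lists were chosen with earlier results of these data known. By rule, the text names the 5 transcripts, the genes most like them over the 14 libraries, and the genes with a symbol from lists of pathways and cell types. Normalized counts used DESeq2 1.42.0 size factors. Tests used edgeR 4.0.16 (quasi-likelihood F-test, TMM factors, R 4.3.3) on genes with a mean above 1 normalized count, with Benjamini-Hochberg adjustment over all genes and a threshold of 0.05. They were also run on simulated counts. These held no effect of the female shared by 2 libraries, so they do not bear on the unpaired treatment test. Log2 values carried a pseudocount of 1. Permutation tests ran over all 5040 orders of the 7 females. The replicate number pairs the 2 libraries of a female, and their deviations from the group means correlated with r from 0.373 to 0.529, against at most 0.0548 between females. Alternatives were DESeq2's tests, its size factors, another filter (edgeR's filterByExpr), the block, each female left out, survival at the swim-up stage, log2 values and TMM scaling. Halved counts, and adjustment over the 5 relations outside the selecting pool in place of 10, were added after seeing the data. P-values of the edgeR and DESeq2 tests set a difference against the spread between libraries, and within females where the female was a block. The unpaired treatment fit took the 14 libraries as independent. Permutation p-values set r against its values over the orders of the females.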

Additional observations from a re-analysis of the deposited data

Results flagged for a closer look

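The gynogenetic library of F4 had 776 normalized counts of slc9a1b, and its gap to the next library of that pool, relative to the range of the pool, was 0.581, above Dixon's critical value for 7 samples. The other 6 gynogenetic libraries held 2246 to 3304. In the F4 library 26024 genes had counts, the fewest of the gynogenetic pool. Its share of counts assigned to genes, 68.9%, lay within the pool's range of 67.6% to 74.5%. Whether library quality bears on the value was not tested. Chance flags about 1 in 20 groups, and 10 groups (5 transcripts in 2 pools) were examined.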

How the results depend on the processing

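With the comparisons inside the selecting pool alone left out, 0 of 176 tests of the transcripts under an alternative passed. Among the 176 were the tests of the treatment and of its response by group, which use both pools. The selection limits the response by group, so nothing is read from those tests, and the count of 176 is a description. The lowest adjusted p was 0.101 (edgeR, slc9a1b, treatment, replicate block). DESeq2's Wald test called 245 genes for the treatment, 58 and 41 for control survival in control and gynogenetic eggs, 59 and 35 for competence, 0 for the response by control survival (1103 at an unadjusted p below 0.05; edgeR called 9) and 2 for the response by competence (edgeR 8). The replicate block, which pairs the libraries of a female, raised the treatment count from 57 to 1557, and without it both responses fell to 0 (440 and 394 genes at an unadjusted p below 0.05). With filterByExpr the count was 0 (1356 unadjusted) for control survival in gynogenetic eggs, 0 (889 unadjusted) for the response by control survival and 1 for the response by competence. Competence as F4, F7 and F8 against the others gave 0 calls in both pools (1561 and 741 unadjusted). The log2 difference of slc9a1b was then −0.054 in control and −0.425 in gynogenetic eggs, against 0.27 and −0.12 in the main fits. Single females left out gave 4 to 51 calls for the treatment (4 without F2), 0 to 4 and 0 to 2 for control survival in control and gynogenetic eggs, 0 to 3 for competence in each pool, 5 to 296 for the response by control survival (296 without F7) and 1 to 17 for that by competence (1 without F4, 17 without F7).

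Of these tests, 15 turned direction, between values that had not passed. The ranges below also hold differences of the selecting pool, which the selection limits. With single females left out, log2 differences ranged from −0.12 to 0.17 for the treatment in fstl3. By control survival they ranged in control eggs from −0.16 to 0.078 for oxsr1a, −0.68 to 0.060 for prlhr2a and −0.24 to 0.11 for fstl3, and in gynogenetic eggs from −0.039 to 0.37 for npr1a, −0.40 to 0.062 for prlhr2a and −0.0032 to 0.47 for fstl3. They ranged from −0.30 to 0.17 for competence of slc9a1b in gynogenetic eggs, and for the response by control survival from −0.28 to 0.44 for prlhr2a and −0.17 to 0.54 for fstl3. Correlations with the survival that had not selected the transcript changed sign for oxsr1a in control eggs (0.0451, TMM), prlhr2a in control eggs (0.0501, log2) and in gynogenetic eggs (0.0457, log2, and 0.00642, TMM), slc9a1b in gynogenetic eggs (0.0874, swim-up survival) and fstl3 in control eggs (−0.00839, swim-up survival). At the swim-up stage the selecting r was smaller, at 0.765 for oxsr1a, −0.718 for npr1a, 0.786 for prlhr2a and −0.874 for fstl3 in gynogenetic eggs and −0.885 for slc9a1b in control eggs. The cause of these changes was not tested. Depth limits fstl3 and npr1a most, and 7 females limit every comparison.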
